A study of Mus musculus with 6 samples.

Results

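The 10 Kruppel-like factors Klf2, Klf3, Klf4, Klf5, Klf6, Klf7, Klf9, Klf10, Klf11 and Klf13 were read from RNA of sorted pancreatic tumour cells of KPCY mice. They were taken by symbol from a deposited table of 25978 genes, and all 10 passed the filter on low values. The genotype of every library was Pdx1-Cre, KrasLSL-G12D, Trp53fl/fl and Rosa26LSL-YFP on a C57BL/6 background, in mice between 5 and 7 weeks old. Cre driven by Pdx1 acts in pancreatic cells and their descendants, so normal pancreatic cells can carry yellow fluorescent protein (YFP) as well as tumour cells. Cells with YFP from primary tumours were divided by surface EpCAM, an epithelial adhesion protein, into EpCAM- cells, 3 libraries, and EpCAM+ cells, 3 libraries. The series names them biological replicates, and the sources used here do not say whether same-numbered libraries share a tumour.

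Kruppel-like factors are transcription factors that bind GC-rich and CACCC-type DNA through zinc fingers at the carboxyl end of the protein. Their other ends differ and sort the family by partner. Klf2, Klf4, Klf5, Klf6 and Klf7 belong to a branch of mostly activating factors, Klf3 recruits the CtBP corepressors, and Klf9, Klf10, Klf11 and Klf13 can recruit the Sin3 corepressors. In gut-type epithelium Klf5 is known from dividing cells and Klf4 from cells that have left the cycle, and Klf2 and Klf4 are also known from vessel lining and blood cells.

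EpCAM- cells held more Klf2 and Klf4 RNA and less Klf5, Klf13, Klf11 and Klf3 RNA than EpCAM+ cells. Klf6, Klf7, Klf9 and Klf10 did not pass the test. Of the 10 factors, limma called 2 higher and 4 lower, with a threshold of 0.05 on p-values adjusted by Benjamini-Hochberg. The calls make up 60.0% of the factors, where 43.4% of the 15783 tested genes were called, 20.3% higher and 23.1% lower. Only 3 factors were called when EpCAM+ replicate 2 or 3 was left out. The number higher was 1 without EpCAM- replicate 2 or either of those, and the number lower was 2 without EpCAM- replicate 3 or either of those. The 6 called factors were also those whose groups did not overlap, 2 higher and 4 lower. Groups were likewise separate for 56.3% of all tested genes, 27.1% higher and 29.2% lower. The changes were moderate. Only Klf2 exceeded a log2 fold change of 1 in size, which 25.8% of tested genes did. The median log2 fold change was -0.26 over the factors and 0.00 over all tested genes, and the median size was 0.69 against 0.46.

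Epcam itself had log2 levels of 8.42, 8.22 and 7.22 in EpCAM- libraries, against 15.06, 14.90 and 14.89 in EpCAM+ libraries, so the sort is seen in the RNA. All 8 epithelial markers tested were lower in EpCAM- cells. Over the tested genes, libraries of a group correlated at Pearson's r from 0.977 to 0.989, and those of different groups at 0.854 to 0.883. The deposited values are normalised and on a log2 scale, so read depth per library is unknown. In sorted bulk RNA, fewer cells that express a gene and less RNA per cell cannot be told apart.

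Promoters of factors that differed are shown as examples of GC-rich sequence of the kind the family itself binds. RefSeq entries on GRCm38.p6 matched 8 of the 10 factors, without Klf5 and Klf10. The window searched ran from 250 to 30 bases before the RefSeq start and was 221 bases long. It held no annotated exon for 5 factors, Klf2, Klf4, Klf6, Klf9 and Klf13, and the 3 of these that passed the test between the groups are printed 5′ to 3′ on the gene's strand. Klf2 is at chr8:72318812-72319032 (plus strand), Klf4 at chr4:55532505-55532725 (minus strand) and Klf13 at chr7:63938945-63939165 (minus strand). Capitals mark matches, on either strand, to the GC box written as GGGCGG, the CCAAT box or the MEF2 site.
Klf2: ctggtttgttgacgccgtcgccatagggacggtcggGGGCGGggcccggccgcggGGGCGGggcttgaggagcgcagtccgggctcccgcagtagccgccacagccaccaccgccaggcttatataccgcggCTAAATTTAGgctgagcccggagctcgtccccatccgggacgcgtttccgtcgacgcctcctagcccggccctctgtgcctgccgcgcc
Klf4: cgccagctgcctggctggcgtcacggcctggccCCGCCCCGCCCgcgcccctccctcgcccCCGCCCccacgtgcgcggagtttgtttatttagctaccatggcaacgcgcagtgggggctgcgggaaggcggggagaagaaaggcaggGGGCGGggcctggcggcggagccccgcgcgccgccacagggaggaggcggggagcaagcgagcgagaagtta
Klf13: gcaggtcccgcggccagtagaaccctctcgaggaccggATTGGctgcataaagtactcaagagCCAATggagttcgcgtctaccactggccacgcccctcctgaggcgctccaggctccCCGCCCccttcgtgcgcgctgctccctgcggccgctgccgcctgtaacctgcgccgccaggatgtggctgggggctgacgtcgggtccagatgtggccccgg

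The Klf4 window held 4 GC boxes, of which the first 2 listed overlap, the Klf2 window 2 and the Klf13 window 1. A GC box was present in 28.7% of the 32851 RefSeq promoter windows of this length. The Klf2 window held 1 match to the MEF2 site, which begins 118 bases before the start and which 0.423% of all windows hold. The Klf13 window held 2 CCAAT boxes, and 31.1% of all windows have at least 1. The windows were 71.5% (Klf2), 74.2% (Klf4) and 68.8% (Klf13) G or C, where the median of all windows was 52.0%. Windows of the factors not printed, among them Klf6, Klf7 and Klf9 that did not pass, were between 60.2% (Klf7) and 79.2% (Klf3). Further motifs searched on both strands were not in the 3 printed windows. These were the CACCC box (letters as named, in 48% of all windows), the TATA box written as TATAAA (9.99%) and the AP-1 site written as TGACTCA (4.02%). They also included the cyclic AMP response element written as TGACGTCA (1.16%), the E-box written as CACCTG (15.6%) and the CArG box (1.3%). Of the windows not printed, those of Klf3, Klf7 and Klf9 held the CACCC box, and that of Klf3 held 6 GC boxes. A match to such letters is a description of the window and not a bound site.

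**Figure D1:**
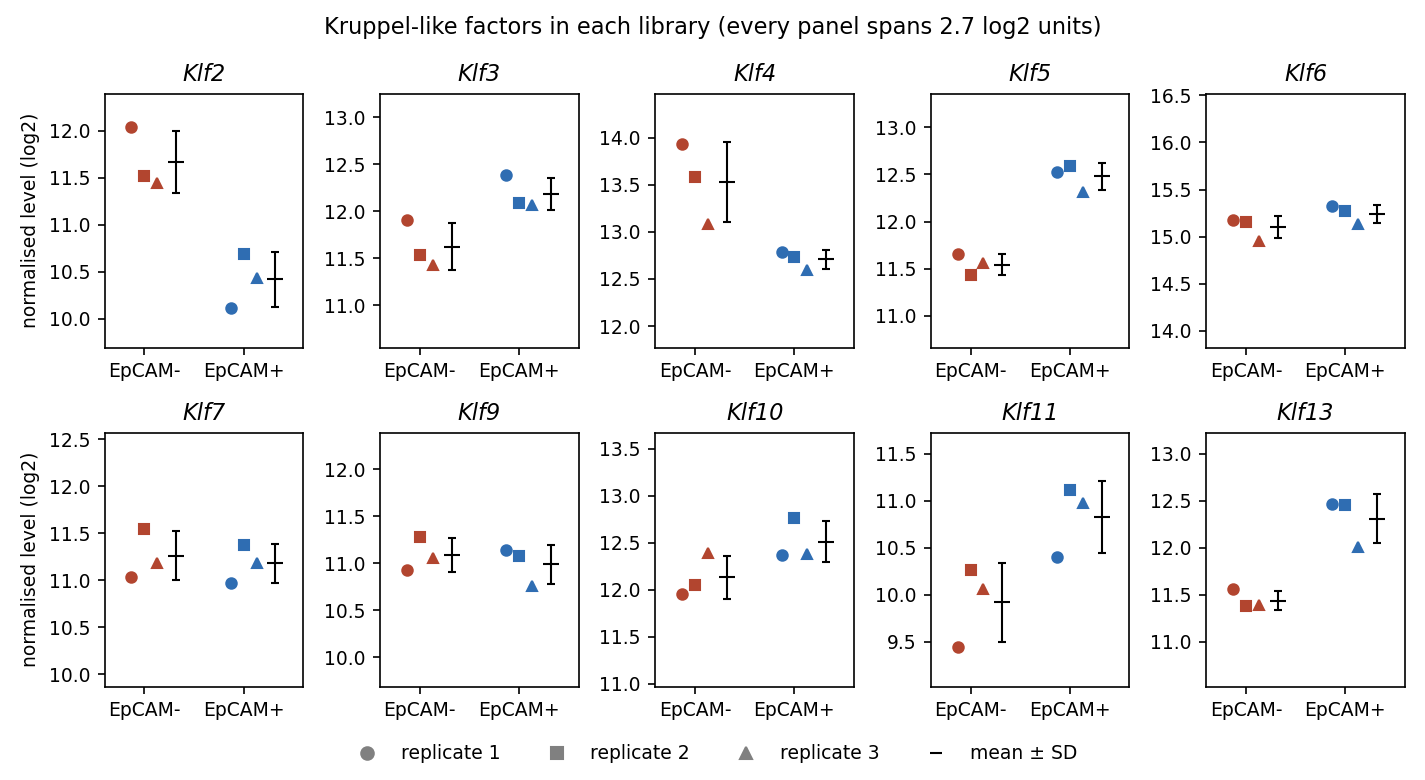
Normalised log2 level (vertical axis) of each factor in the 3 EpCAM- libraries (red, left) and the 3 EpCAM+ libraries (blue, right). Symbols give the replicate number, and bars give the mean and SD. Klf2 and Klf4 lie higher in every EpCAM- library, Klf3, Klf5, Klf11 and Klf13 lower in every EpCAM- library, and the groups overlap for Klf6, Klf7, Klf9 and Klf10.

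Of the activating branch, Klf2 rose most. Klf2 (ENSMUSG00000055148, GRCm38 chromosome 8, 72319033 to 72321656) is known for quiescence in vessel lining and T cells. Its log2 levels were 12.04, 11.52 and 11.44 in EpCAM- replicates 1, 2 and 3, against 10.12, 10.69 and 10.43 in EpCAM+ replicates 1, 2 and 3. Every EpCAM- library lay above every EpCAM+ library, with a gap of 0.75 between the nearest values, more than the SD of 0.33 among EpCAM- and 0.29 among EpCAM+ libraries. The log2 fold change was 1.25 ± 0.21 (SE, limma adjusted p = 0.00283), which is 2.38-fold with a 95% confidence interval between 1.70 and 3.34. It passed in each of 18 alternative analyses, with log2 fold changes between 1.06 and 1.39.

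Klf4 (ENSMUSG00000003032, chromosome 4, 55527143 to 55532466), a factor of epithelial differentiation and a member of the reprogramming set, also rose. It stood at 13.93, 13.58 and 13.08 in EpCAM- replicates 1, 2 and 3, against 12.79, 12.73 and 12.59 in EpCAM+ replicates 1, 2 and 3. The groups did not overlap, but the EpCAM- libraries were spread more widely (SD 0.42) than the EpCAM+ libraries (SD 0.10). Its log2 fold change was 0.82 ± 0.21 (SE, adjusted p = 0.0186), or 1.77-fold. The call was lost without EpCAM- replicate 2 (adjusted p = 0.0510), without EpCAM+ replicate 2 (adjusted p = 0.0511) and without EpCAM+ replicate 3 (adjusted p = 0.0703), at log2 fold changes of 0.80, 0.84 and 0.77. Over all alternatives its adjusted p lay between 0.00365 and 0.0703.

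Klf5 (ENSMUSG00000005148, chromosome 14, 99298691 to 99315036), known to promote division and identity of gut-type epithelial cells, fell. Its log2 levels were 11.65, 11.43 and 11.56 in EpCAM- replicates 1, 2 and 3, against 12.53, 12.59 and 12.31 in EpCAM+ replicates 1, 2 and 3. The groups were 0.67 apart at their nearest, and the SDs were 0.11 and 0.14 for EpCAM- and EpCAM+ libraries. The log2 fold change of -0.93 ± 0.12 (SE, adjusted p = 7.39e-04) corresponds to a level of 0.524 times that of EpCAM+ cells, with a 95% confidence interval between 0.434 and 0.633. It had the smallest adjusted p of the 10 factors and passed in all 18 alternatives, between -1.01 and -0.87. Within a library, the log2 level of Klf4 exceeded that of Klf5 by 2.28, 2.15 and 1.52 in EpCAM- replicates 1, 2 and 3, against 0.26, 0.14 and 0.28 in EpCAM+ replicates 1, 2 and 3. These differences are not per length, but the lengths are the same in both groups. The shift in the balance of these factors was thus seen in every library, as a description chosen after the values were seen.

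Klf6 and Klf7, the remaining members of that branch, had groups that overlapped. Klf6, a widely expressed factor induced by injury, stood at 15.18, 15.15 and 14.95 in EpCAM- replicates 1, 2 and 3, against 15.33, 15.27 and 15.13 in EpCAM+ replicates 1, 2 and 3. Its log2 fold change was -0.15 with a 95% confidence interval between -0.53 and 0.23 (adjusted p = 0.493). Its mean level, not per length, was above that of 99.7% of tested genes. Klf7, known from neuron development, stood at 11.04, 11.55 and 11.18 in EpCAM- replicates 1, 2 and 3, against 10.97, 11.38 and 11.18 in EpCAM+ replicates 1, 2 and 3. Its log2 fold change was 0.08, with a 95% confidence interval between -0.31 and 0.48 (adjusted p = 0.728), and its sign turned to -0.07 without EpCAM- replicate 2 and -0.02 without EpCAM+ replicate 1.

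Klf3 (ENSMUSG00000029178, chromosome 5, 64803388 to 64832901), the CtBP-binding repressor, was lower in EpCAM- cells. It stood at 11.91, 11.53 and 11.43 in EpCAM- replicates 1, 2 and 3, against 12.38, 12.09 and 12.07 in EpCAM+ replicates 1, 2 and 3. The nearest values of the groups were only 0.17 apart, less than the SD of 0.25 among EpCAM- libraries and equal to that of 0.17 among EpCAM+ libraries. The log2 fold change was -0.55 ± 0.16 (SE, adjusted p = 0.0256). The call was lost without EpCAM- replicate 2 (adjusted p = 0.0721) or 3 (adjusted p = 0.0796) and without EpCAM+ replicate 1 (adjusted p = 0.0856), 2 (adjusted p = 0.0517) or 3 (adjusted p = 0.0547), so of the libraries only EpCAM- replicate 1 could be left out. Without EpCAM+ replicate 1 and EpCAM- replicate 3 together it was -0.36 (adjusted p = 0.210). An exon of the antisense gene Gm20033 overlaps Klf3, and the sources used here do not say whether reads were counted by strand, so reads of the pair cannot be told apart. Exons of Gm13748 and Gm26649 overlap Klf7 in the same way.

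The Sin3-binding branch either fell or did not pass. Klf13 (ENSMUSG00000052040, chromosome 7, 63886351 to 63938915), known as a factor for the chemokine gene Ccl5 in T cells, stood at 11.56, 11.38 and 11.39 in EpCAM- replicates 1, 2 and 3, against 12.47, 12.46 and 12.01 in EpCAM+ replicates 1, 2 and 3. All EpCAM- libraries were at least 0.45 below the lowest EpCAM+ library. The log2 fold change was -0.87 ± 0.15 (SE, adjusted p = 0.00332), or 0.547 times the EpCAM+ level. It passed in all 18 alternatives, between -1.02 and -0.77.

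Klf11 (ENSMUSG00000020653, chromosome 12, 24651274 to 24662789), a gene induced by TGF-beta, was the most variable member. Its log2 levels were 9.45, 10.26 and 10.06 in EpCAM- replicates 1, 2 and 3, against 10.40, 11.11 and 10.98 in EpCAM+ replicates 1, 2 and 3. Replicate 1 was the lowest library of each group, and the groups were 0.14 apart, less than the SDs of 0.42 and 0.38 for EpCAM- and EpCAM+ libraries. The log2 fold change was -0.91 ± 0.26 (SE, adjusted p = 0.0280). The call was lost without EpCAM- replicate 1 (adjusted p = 0.0534) or 3 (adjusted p = 0.0510) and without EpCAM+ replicate 2 (adjusted p = 0.0904) or 3 (adjusted p = 0.0961), and over all alternatives the adjusted p lay between 0.00145 and 0.0961.

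Klf10, the other TGF-beta-induced member, did not pass. It stood at 11.95, 12.05 and 12.39 in EpCAM- replicates 1, 2 and 3, against 12.37, 12.76 and 12.38 in EpCAM+ replicates 1, 2 and 3. EpCAM- replicate 3 lay among the EpCAM+ values, and the log2 fold change was -0.38 with a 95% confidence interval between -0.77 and 0.01 (adjusted p = 0.107). Klf9, which glucocorticoid and thyroid hormones induce, stood at 10.93, 11.28 and 11.06 in EpCAM- replicates 1, 2 and 3, against 11.14, 11.08 and 10.76 in EpCAM+ replicates 1, 2 and 3. Its log2 fold change was 0.10, between -0.24 and 0.44 (95% confidence interval, adjusted p = 0.624), and turned to -0.02 without EpCAM+ replicate 3. The intervals of Klf9 and Klf7 reach to less than 0.5 log2 units on either side of 0.

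**Figure D2:**
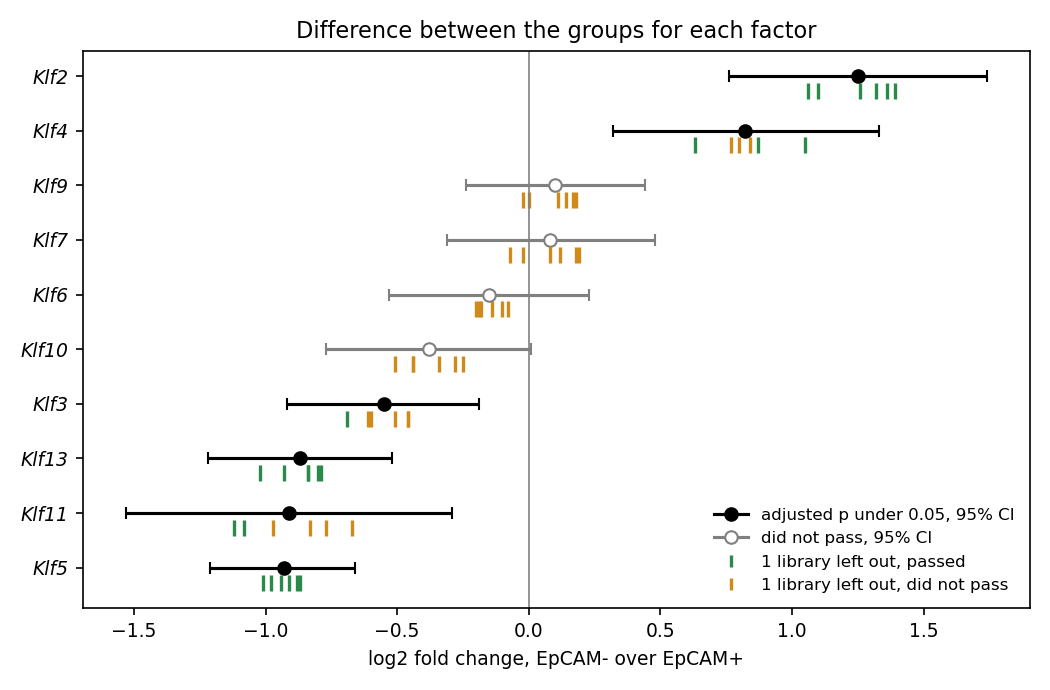
Log2 fold change of each factor, EpCAM- over EpCAM+ (horizontal axis), with the 95% confidence interval from limma; filled points passed the test and open points did not. Ticks under each point are the values with 1 library left out, green where the test still passed. Klf2, Klf5 and Klf13 passed in every case, whereas Klf4 lost the call in 3, Klf11 in 4 and Klf3 in 5 of the 6 cases.

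Levels of different factors were compared per kilobase of merged exon. Klf6 was first and Klf4 the next in both groups, at mean log2 levels per kilobase of 12.96 ± 0.12 and 11.92 ± 0.42 in EpCAM- cells, against 13.11 ± 0.10 and 11.10 ± 0.10 in EpCAM+ cells (SD over 3 libraries each). In EpCAM- libraries the order went on with Klf2 (10.78), Klf10 (10.07), Klf5 (9.17), Klf9 (8.82), Klf13 (8.53), Klf7 (8.23), Klf3 (8.13) and Klf11 (7.81). In EpCAM+ libraries it went on with Klf10 (10.44), Klf5 (10.10), Klf2 (9.53), Klf13 (9.40), Klf9 (8.72), Klf11 (8.71), Klf3 (8.69) and Klf7 (8.15). By merged exons Klf2 was thus above Klf10 and Klf5 in EpCAM- libraries and below both in EpCAM+ libraries, without overlap of their ranges in either group. Neighbours whose ranges overlapped were Klf13 and Klf7, Klf7 and Klf3, and Klf3 and Klf11 in EpCAM- libraries, and Klf2 and Klf13, Klf9 and Klf11, and Klf11 and Klf3 in EpCAM+ libraries.

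Klf6 took the largest part of the 10 factors' summed level per kilobase, 46.9% ± 2.0 in EpCAM- cells, against 53.5% ± 1.9 in EpCAM+ cells (SD over 3 libraries each). Klf4 took 26.9%, 23.3% and 18.9% in EpCAM- replicates 1, 2 and 3, against 13.7%, 12.9% and 13.3% in EpCAM+ replicates 1, 2 and 3. Klf2 took 10.4% ± 1.4 in EpCAM- cells, with 9.24% as the lowest share, against 4.54% ± 0.87 in EpCAM+ cells, with 5.16% as the highest (SD over 3 libraries each). Klf5 took 3.40% ± 0.42 in EpCAM- cells, against 6.64% ± 0.20 in EpCAM+ cells (SD over 3 libraries each). Since the shares add up to the whole, a larger share of Klf4 and Klf2 lowers the share of the others. The 10 factors together, not per length, made up 0.242% to 0.283% of all back-transformed signal in EpCAM- libraries, against 0.259% to 0.295% in EpCAM+ libraries, and these ranges overlap.

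The order below Klf4 depends on the length used. With the longest annotated transcript in place of merged exons, Klf3 moved to place 6 in EpCAM- and place 5 in EpCAM+ libraries, from place 9 in both, because its merged exons span 11.2 kb and its longest transcript 5.22 kb. Klf2 moved to place 7 in EpCAM+ libraries, from place 5, and kept place 3 in EpCAM- libraries. Its EpCAM- mean was then 10.78, against 10.52 for Klf10, which had 10.07 by merged exons. The separation of their ranges in EpCAM- libraries is thus stated for merged exons only.

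**Figure D3:**
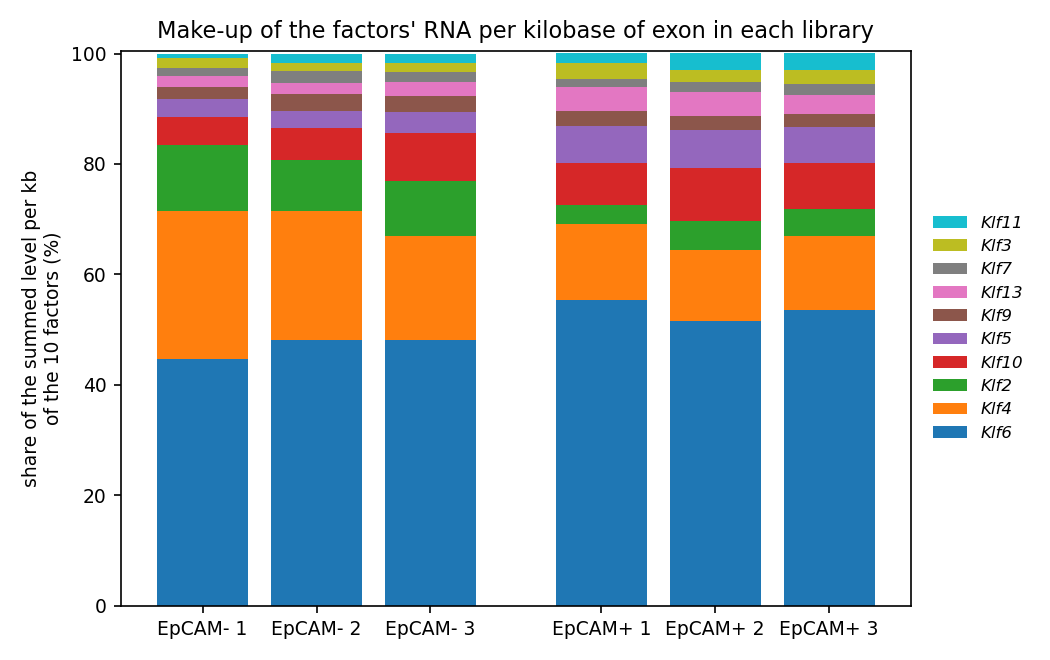
Share of each factor in the summed level per kilobase of the 10 factors (vertical axis, %), 1 bar per library, with EpCAM- libraries on the left. The Klf4 and Klf2 segments are wider in each EpCAM- library (at least 18.9% and 9.24%) than in any EpCAM+ library (at most 13.7% and 5.16%).

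The spread within groups differed among the factors. Klf6 and Klf5 were the steadiest, with pooled SDs of 0.11 and 0.13 that only 15.1% and 19.7% of tested genes fell below, and Klf11 the least steady at 0.40, where 79.1% of tested genes had a smaller SD. Klf2, Klf3 and Klf4 were each highest of the EpCAM- libraries in replicate 1, by 0.37, 0.28 and 0.40 above their group means. Of the 10 factors, 9 lay above the group mean in EpCAM+ replicate 2, with a median deviation of 0.13, and 7 lay below it in EpCAM- replicate 3 (median -0.06) and in EpCAM+ replicate 3 (median -0.11).

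Of 7 other Klf genes listed, 6 were in the table, 4 passed the filter and 0 passed the limma test. Klf16, a repressor of the Sin3-binding branch, had a log2 level of 9.85 ± 0.35 in EpCAM- cells, against 10.16 ± 0.27 in EpCAM+ cells (SD over 3 libraries each), a difference of -0.31 (adjusted p = 0.279). Klf8 (0.28, adjusted p = 0.542) and Klf12 (-0.17, adjusted p = 0.591), which like Klf3 bind CtBP, and Klf15 (-0.61, adjusted p = 0.174), a metabolic regulator, stood at much lower log2 levels, between 3.02 and 7.44. Klf12 turned to 0.02 without EpCAM- replicate 1, and Klf15 passed without EpCAM+ replicate 1 (-0.91, adjusted p = 0.0453). Of the Sp factors, which share the zinc fingers, 9 were in the table and 6 were tested, with 1 higher, 2 lower and a median of 0.09. Sp6, an epithelial and tooth factor, was at 3.90 ± 0.88 in EpCAM- cells, against 6.16 ± 0.37 in EpCAM+ cells (SD over 3 libraries each), and its fold change on the log2 scale was -2.26 ± 0.45 (SE, adjusted p = 0.00650). The ubiquitous Sp1 had 0.15 (adjusted p = 0.448) and Sp3 had 0.31 (adjusted p = 0.0697). Sp4 (0.48) lost its call without any 1 library other than EpCAM- replicate 1, and Sp5 (-0.89) without EpCAM- replicate 3 or EpCAM+ replicates 1 or 3. Without EpCAM- replicate 1, 2 Sp factors were higher.

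Of 12 tested cofactors, 2 were higher and 2 lower, which is 33.3%, where 43.4% of all tested genes were called, and their median was 0.13. Ctbp2, a partner of Klf3, stood at 11.19, 10.76 and 10.79 in EpCAM- replicates 1, 2 and 3, against 11.76, 11.82 and 11.47 in EpCAM+ replicates 1, 2 and 3. It fell by 0.77 on the log2 scale (SE 0.16, adjusted p = 0.00699), and Ctbp1 had 0.11 (adjusted p = 0.473). Sin3b rose by 0.44 ± 0.090 (SE, adjusted p = 0.00704), and Sin3a had 0.23 (adjusted p = 0.235). The deacetylase gene Hdac1 (0.36) lost its call without any 1 library, and the acetyltransferase gene Kat2b (-0.42) without any 1 library other than EpCAM- replicate 2. With all 6 libraries kept, both also lost it without a filter on low values (adjusted p = 0.0640 and 0.0726) and without a variance trend (0.0624 and 0.0688). Kat2b further lost it with upper-quartile (0.0607) and quantile scaling (0.0779) and with replicate number as a block (0.0544). Of 9 ubiquitin ligase genes that act on these proteins, 0 were higher and 1 was lower, a share of 11.1%. The lower member was the muscle and stress ligase Fbxo32 at -1.53 ± 0.26 (SE, adjusted p = 0.00311). Wwp1, known to mark Klf5 for degradation, had -0.03 (adjusted p = 0.862), and Fbxw7 had 0.42 (adjusted p = 0.0545). Without EpCAM- replicate 2, 1 ligase was higher and 2 were lower.

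Genes of the ERK5 kinase path, which in vessel lining induces Klf2 and Klf4 through MEF2 factors, were mostly higher in EpCAM- cells. Of 7 tested, 5 were higher and 0 lower, a share of 71.4%, with a median of 0.64. Of all tested genes, 43.4% were called and 20.3% were higher. Mef2c stood at 7.86, 7.91 and 8.20 in EpCAM- replicates 1, 2 and 3, against 6.98, 6.31 and 6.46 in EpCAM+ replicates 1, 2 and 3, a rise of 1.41 ± 0.22 (SE, adjusted p = 0.00239). The kinase gene Map3k3 rose by 0.89 ± 0.11 (SE, adjusted p = 6.69e-04), Mef2a by 0.80 ± 0.15 (SE, adjusted p = 0.00524) and Mef2d by 0.64 ± 0.092 (SE, adjusted p = 0.00154). These 4 passed in all 18 alternatives. Mapk7, which encodes ERK5, had 0.41 (adjusted p = 0.0401). Its call was lost without a filter on low values (adjusted p = 0.0652) and without any 1 library other than EpCAM- replicate 1. Map2k5, its activating kinase, had 0.17 (adjusted p = 0.255), and the kinase gene Map3k2 had 0.38 (adjusted p = 0.188). The match to a MEF2 site, CTAAATTTAG in capitals, was in the printed window of Klf2 and not in that of Klf4. The part of this path in the levels of Klf2 and Klf4 was not tested.

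Genes of the TGF-beta path, which induces Klf10 and Klf11 in other cells, were called in both directions. Of 17 tested, 5 were higher and 2 lower, with a median of 0.10. The share called, 41.2%, was near the 43.4% of all tested genes, of which 20.3% were higher and 23.1% lower. Tgfb3, which encodes a ligand of the path, stood at 11.92, 12.02 and 11.52 in EpCAM- replicates 1, 2 and 3, against 10.97, 10.93 and 10.48 in EpCAM+ replicates 1, 2 and 3, a rise of 1.03 ± 0.19 (SE, adjusted p = 0.00438). The pseudoreceptor gene Bambi rose by 0.93 ± 0.21 (SE, adjusted p = 0.0109), and the corepressor gene Ski by 0.90 (adjusted p = 0.00110). The ligand gene Tgfb1 was called at 0.62 (adjusted p = 0.0479) and lost the call without a filter on low values (adjusted p = 0.0622) or when any 1 library other than EpCAM- replicate 1 and EpCAM+ replicate 2 was omitted. The inhibitory Smad6 fell by 1.39 on the log2 scale (SE 0.26, adjusted p = 0.00473), and Pmepa1, a feedback inhibitor, had -0.52. Smad7 had 0.44 (adjusted p = 0.0927). Only 1 member was lower without EpCAM+ replicate 1.

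Glucocorticoid-responsive genes, listed for Klf9, were called higher for 3 and lower for 1 of 8. The kinase gene Sgk1 rose by 1.44 ± 0.31 (SE, adjusted p = 0.00841) and Tsc22d3, also known as Gilz, by 0.86 ± 0.18 (SE, adjusted p = 0.00743), and both passed in all 18 alternatives. Fkbp5 had 0.95 (adjusted p = 0.0329), a call that did not hold when EpCAM- replicate 1, 2 or 3 or EpCAM+ replicate 2 was left out. It was also lost with array weights (adjusted p = 0.0643). The receptor gene Nr3c1 had -0.20 (adjusted p = 0.322). Hsd11b1 had the largest change, 2.57, but did not pass (adjusted p = 0.0503), with SDs of 1.5 in EpCAM- and 1.2 in EpCAM+ libraries. It passed in some alternatives, among them TMM scaling (adjusted p = 0.0493). Per1 (0.87, adjusted p = 0.0826) and Zbtb16 (0.24, adjusted p = 0.775) did not pass. The lower member, the phosphatase gene Dusp1 (-0.79, adjusted p = 0.0353), lost its call without any 1 library other than EpCAM- replicate 2.

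Several Kruppel-like factors are early response genes that tissue dissociation can induce, so the immediate early and heat shock genes were read beside them. Of 23 tested, 2 were higher and 4 lower, 26.1%, where 43.4% of all tested genes were called. Their median was -0.21. The log2 of their summed level was 18.14, 18.50 and 18.24 in EpCAM- replicates 1, 2 and 3, against 18.28, 18.67 and 18.77 in EpCAM+ replicates 1, 2 and 3, and these ranges overlap. Fos had -0.55 (adjusted p = 0.0872), Egr1 0.14 (adjusted p = 0.666) and Atf3 -0.47 (adjusted p = 0.0501). Zfp36 (-0.87), Btg2 (-0.70), Ier2 and Dusp1 were the members called lower, and Egr3 (0.79) and Ier5 (0.61) those called higher. Ier5 lost its call without any 1 library other than EpCAM- replicate 1. With array weights 7 were lower, with Fos (-0.70, adjusted p = 0.0313), Fosb (-0.72, adjusted p = 0.0285) and Atf3 (-0.44, adjusted p = 0.0321) added. Fosl1 was then added to the higher ones (0.65, adjusted p = 0.0259). Leaving out EpCAM- replicate 3 or EpCAM+ replicate 1 left 1 lower, and leaving out EpCAM+ replicate 2 or 3 left 0. Leaving out EpCAM- replicate 2 or 3 left 1 higher, and leaving out EpCAM+ replicate 1 or 3 left 0. The part of dissociation in the levels of the factors was not tested.

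Genes reported as targets of Klf4 and Klf5 in epithelia were called lower for 4 and higher for 1 of 10 tested. Their median was -0.45. Of all tested genes, 43.4% were called, 23.1% lower and 20.3% higher. The list joins genes reported for either factor and was not split by whether a factor raises or lowers them. Its count and median are therefore no measure of the activity of Klf4 or Klf5, which was not tested. Keratin 4, Krt4, was at 2.53 ± 0.37 in EpCAM- cells, against 6.78 ± 0.24 in EpCAM+ cells (SD over 3 libraries each), and differed by -4.25 ± 0.26 on the log2 scale (SE, adjusted p = 3.10e-05). E-cadherin, Cdh1, had -3.77, Krt19 -3.72 and the growth factor carrier Fgfbp1 -3.06, and Cdh1 and Krt19 are also epithelial markers, in whose direction the sort on EpCAM selects. Krt4 and Fgfbp1 (2.29 in EpCAM- cells) had EpCAM- means below the filter and passed it only through their EpCAM+ levels. This favours calls in the lower direction, and the sizes of these 2 changes depend on low values. The mitotic cyclin gene Ccnb1 was the member called higher (1.62 ± 0.35, SE, adjusted p = 0.00898), and 2 were higher without EpCAM- replicate 1. The cell cycle inhibitor Cdkn1a (0.28, adjusted p = 0.390) and cyclin D1, Ccnd1 (0.31, adjusted p = 0.457), did not pass. Of 4 tested genes reported as Klf2 targets in vessels and T cells, 2 were higher and 0 lower. Thrombomodulin, Thbd, stood at 10.56, 9.94 and 9.46 in EpCAM- replicates 1, 2 and 3, against 6.94, 6.16 and 5.87 in EpCAM+ replicates 1, 2 and 3, a rise of 3.67 ± 0.36 (SE, adjusted p = 2.62e-04). The integrin gene Itgb7 rose by 3.24 ± 0.42 (SE, adjusted p = 9.47e-04), and the lipid receptor gene S1pr1 had 0.04 (adjusted p = 0.904). Of 8 partners of Klf2, Klf4 and Klf5 in pluripotent cells, 3 were tested. Tfcp2l1, also a duct and kidney epithelial factor, fell by 2.91 on the log2 scale (SE 0.20, adjusted p = 4.72e-05), Myc rose by 0.70 and lost its call without EpCAM+ replicate 2 (adjusted p = 0.0537) or 3 (adjusted p = 0.0828), and Tbx3 had 1.43 (adjusted p = 0.147).

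**Figure D4:**
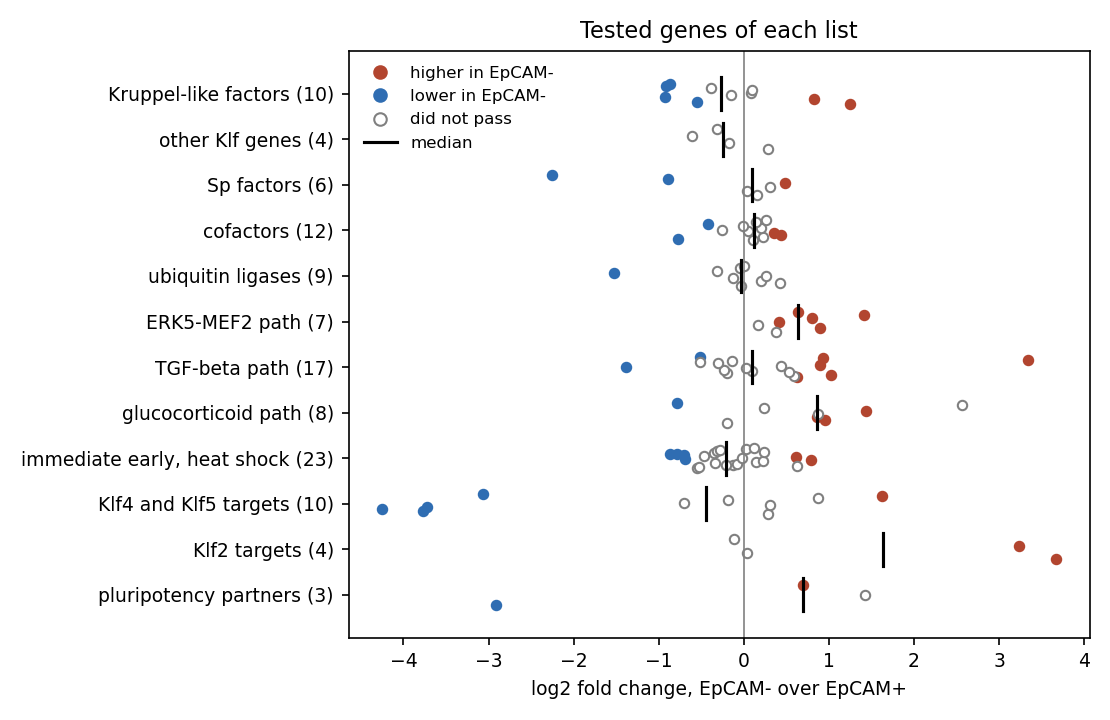
Log2 fold change, EpCAM- over EpCAM+ (horizontal axis), of every tested gene of each list, with the number tested in brackets and the median as a bar. Filled points passed the test, red higher and blue lower in EpCAM-. The Kruppel-like factors span -0.93 to 1.25, a narrower range than the lists of their targets, which reach -4.25 and 3.67. The gene at -4.25, Krt4, had an EpCAM- mean below the filter.

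As Klf2 and Klf4 are also known from vessel lining and blood cells, markers of other cell types were read beside them. Of 10 endothelial markers, 6 were tested, with 1 higher (Kdr, 1.20, adjusted p = 0.0485) and 1 lower (Esam, -1.43, adjusted p = 0.0116). These calls are 33.3% of the markers tested, where 43.4% of all tested genes were called. Kdr lost its call without EpCAM- replicate 2 or 3 or EpCAM+ replicate 1 or 3. It also lost it without a filter on low values (adjusted p = 0.0583), with a minimum mean of 50 (0.0523) and without a variance trend (0.0517). In turn, 0 endothelial markers were higher without EpCAM- replicate 2 or EpCAM+ replicate 3. After quantile normalisation 3 were higher, Kdr, Cdh5 (1.47, adjusted p = 0.0370) and Eng (1.87, adjusted p = 0.0243), where Cdh5 had 1.20 (adjusted p = 0.0658) and Eng 1.54 (adjusted p = 0.0660) before it. The log2 of their summed level was 8.93, 8.29 and 8.12 in EpCAM- replicates 1, 2 and 3, against 7.79, 7.73 and 7.52 in EpCAM+ replicates 1, 2 and 3. It was thus higher in EpCAM- cells. Among EpCAM- libraries it was highest in replicate 1, as Klf2, Klf3, Klf4, Klf5, Klf6 and Klf13 were. Of the EpCAM+ libraries, replicate 1 was also highest for the sum, and there Klf4 was highest and Klf2 lowest. The order of the sum within each group was that of Eng alone among the larger markers. Eng stood at 8.10, 6.66 and 6.12 in EpCAM- replicates 1, 2 and 3, against 6.25, 5.00 and 4.99 in EpCAM+. Cdh5, Pecam1 and Esam were also highest in EpCAM- replicate 1, but Kdr (5.52, 6.47 and 6.79) and Vwf were lowest there. The order of the sum is therefore no measure of the endothelial markers as a set. Pecam1 (0.37, adjusted p = 0.353) and Vwf (-0.13, adjusted p = 0.780) did not pass, and Tek, Tie1, Emcn and Cldn5 were below the filter. Of 10 macrophage markers, 0 were higher and 8 lower, with log2 sums between 9.43 and 9.81 in EpCAM- and between 10.35 and 12.60 in EpCAM+ libraries. The number lower was 4 without EpCAM- replicate 3 or EpCAM+ replicate 3. Of 8 T cell markers, 6 were below the filter, among them Cd3e, Cd3d, Cd3g, Cd4 and Cd8a, and Trbc2 (1.74) was the only call. No neutrophil, adipocyte or erythroid marker passed the filter.

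Fibroblast and pericyte markers also differed, where 43.4% of all tested genes were called. Of 10 fibroblast markers, 9 were higher and 0 lower, with log2 sums of 16.98, 17.41 and 15.25 in EpCAM- replicates 1, 2 and 3, against 13.82, 10.44 and 10.72 in EpCAM+ replicates 1, 2 and 3. EpCAM- replicate 3 was lowest of its group for these markers and for Klf4, and EpCAM+ replicate 1 was highest of its group for both. The highest EpCAM- library differed, replicate 2 for the markers and replicate 1 for Klf4 (13.93, against 13.58 in replicate 2). Klf2 was likewise lowest of its group in EpCAM- replicate 3 (11.44), but it was lowest, not highest, in EpCAM+ replicate 1 (10.12). Of 5 tested pericyte markers, 1 was higher and 2 were lower, and 0 were lower without EpCAM+ replicate 3 and 1 without any other library. All 8 acinar markers were lower in EpCAM- cells, where 2 of them had means below the filter. The part of other cell types in the levels of the factors was not tested.

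The genes nearest to each factor were found over the 6 libraries by the root mean square difference of log2 values, each gene centred on its own mean, among 11509 well expressed genes. Pafah1b3, a lipid-modifying enzyme subunit, was nearest to Klf5 at 0.030 log2 units, followed by the ephrin receptor gene Ephb4 at 0.057. Tm2d1 was nearest to Klf3 (0.041), Arhgef18 to Klf13 (0.082) and the mitochondrial ribosomal RNA gene mt-Rnr2 to Klf11 (0.113). Syde1 (0.092) and the signalling adaptor gene Traf1 (0.093) were nearest to Klf4, and the trafficking GTPase gene Rab30 (0.157) and Bahcc1 (0.161) to Klf2. The distance to the nearest gene was largest for Klf2. Among the factors that did not pass, Smim7 was nearest to Klf6 (0.040), Diaph2 to Klf7 (0.041), Gtdc1 to Klf9 (0.054) and Zfp800 to Klf10 (0.053). No factor had another of the 10 among its 2 nearest genes.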

How the data were processed

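RNA was measured in 6 libraries, 3 of each sorted population. The KAPA mRNA HyperPrep kit and an Illumina HiSeq were used, per the labels' protocols. DESeq2 1.24.0, RSEM, STAR 2.5.2 and the build GRCm38 are named in the submitters' processing notes, without their roles. The deposited values are normalised log2 levels from -1.52 to 20.05, and the sources used here do not give the transform the authors used. The depth is unknown, so no interval that needs it is given.

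Deposited log2 values were tested as they stand by limma 3.58.1 (R 4.3.3), letting the prior variance follow the mean level and using no covariate. Tested were the 15783 of 25978 genes whose back-transformed mean reached 10. Two-sided p-values were adjusted by Benjamini-Hochberg over all tested genes and called at 0.05. Each log2 fold change is EpCAM- minus EpCAM+. With 3 against 3 libraries an exact permutation test cannot go below p = 0.1, so none was run. The p-values reflect only the spread among these libraries, which may be partly technical.

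Symbols, coordinates and exon lengths come from GENCODE M21 through the Ensembl identifiers, of which 25846 had a symbol there and 132 had none. The members, the 21 gene lists and the tests were chosen with earlier results of these data known. Named are all members, the tested other Klf genes, up to 4 genes of each list with the largest called change, the members of small counts and the 2 genes nearest to each factor among genes with a mean of at least 100. Further list members are named for their role, and these were chosen after their values were seen. A member of a list is not reported here by name. The procedure was checked on simulated data.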

Additional observations from a re-analysis of the deposited data

How the results depend on the processing

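Alternatives were pseudocounts of 0.5, 1 and 5, no filter on low values, a minimum mean of 50, TMM, upper-quartile and quantile scaling, the replicate block, array weights, no variance trend, omission of each single library, and joint omission of EpCAM- replicate 3 with EpCAM+ replicate 1. Klf2, Klf5 and Klf13 kept their calls in all 18. No other setting that kept all 6 libraries changed the call of a factor. The number of factors called lay between 3 and 5 with 1 library left out, the number higher between 1 and 2 and the number lower between 2 and 3. With 1 library left out, the log2 fold change lay between -0.69 and -0.46 for Klf3, between 0.63 and 1.05 for Klf4, between -1.12 and -0.67 for Klf11, between -0.07 and 0.19 for Klf7 and between -0.02 and 0.18 for Klf9. The sign turned for Klf7 at -0.07 (EpCAM- replicate 2 omitted) and -0.02 (EpCAM+ replicate 1 omitted), and for Klf9 at -0.02 (EpCAM+ replicate 3 omitted). With the joint omission, 4369 genes were called in place of 6850 and 1907 were higher in place of 3197, with fewer samples in the fit, and Klf3 had -0.36. Klf12 had 0.16 after quantile normalisation, which moved the median of all tested genes by 0.13, and lay between -0.32 and 0.02 with 1 library left out. For the calls lost, the cause was not tested beyond the smaller number of samples.

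Deviations of same-numbered libraries from their group means correlated at 0.410, 0.044 and 0.165 for numbers 1, 2 and 3, so the numbers were not taken to pair the libraries. EpCAM- replicate 2 correlated better with EpCAM+ replicate 3 (0.134) than with its own number. With the replicate block 7090 genes were called, no call of a factor changed, and the adjusted p of Klf11 was 0.00145 with an SE of 0.098. Among the lists, the block left 3 endothelial markers higher in place of 1, with Cdh5 (adjusted p = 0.0294) and Eng (adjusted p = 0.00439) added, and Mapk7 (adjusted p = 0.0719) and Tgfb1 (adjusted p = 0.0738) not called. The depth is unknown and sets no stated limit.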

Other observations

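Some genes of the lists lay below the filter and were tested only when the filter was left out. Klf1, an erythroid factor, had log2 levels of 1.58, 2.14 and 1.75 in EpCAM- replicates 1, 2 and 3, against 1.75, 1.88 and 1.68 in EpCAM+ replicates 1, 2 and 3. Klf14 averaged 1.83 ± 0.41 in EpCAM- cells, against 1.82 ± 0.29 in EpCAM+ cells (SD over 3 libraries each). The pluripotency gene Pou5f1 stood at 2.32, 2.35 and 2.18 in EpCAM- replicates 1, 2 and 3, against 4.02, 3.81 and 3.82 in EpCAM+ replicates 1, 2 and 3, so the groups did not overlap, and without the filter its log2 fold change was -1.60 (limma adjusted p = 4.52e-04). Without the filter Sp8, at 3.48, 2.64 and 3.23 in EpCAM- against 2.16, 2.05 and 2.37 in EpCAM+ replicates 1, 2 and 3, had 0.92 (adjusted p = 0.0285), and the intestinal phosphatase gene Alpi had -0.67 (adjusted p = 0.0323). Sox2 and Nanog were at 3.08 or less in every library.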
